A study of Mus musculus with 5 samples.

Results

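The receptor chains for GM-CSF, IL-3, IL-5 and G-CSF were examined in 5 samples of mouse bone marrow cells. Members were the probe sets whose annotated gene symbol was Csf2ra, Csf2rb, Csf2rb2, Il3ra, Il5ra or Csf3r, and 9 of the 12422 probe sets that were not controls met this rule, covering all 6 genes. A further probe set was annotated to both Csf2rb and Csf2rb2. It is described beside the others as the shared beta chain probe set, which gives 10 in all. Per the labels, each sample held dendritic cell progenitors that carry FLT3, the receptor for FLT3 ligand on early blood cells, and CD11b, an integrin chain of myeloid cells that Itgam encodes. All 5 samples, numbered 1 to 5, formed 1 group with 1 array each, and no control or contrast was given. Strain, genotype, age, treatment, culture and pooling are not given in the sources used here, nor is it stated that the samples came from separate animals.

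These receptors belong to the cytokine receptor families whose chains have no kinase of their own and signal through bound Janus kinases and STAT factors. Csf2ra, Il3ra and Il5ra encode the alpha chains that give specificity for GM-CSF, IL-3 and IL-5. Csf2rb encodes the common beta chain that all 3 alpha chains use for signalling. The mouse has a second beta chain gene, Csf2rb2, whose product works with the IL-3 receptor only. Csf3r encodes the G-CSF receptor, which pairs with itself and is known for its part in neutrophil production. GM-CSF is widely used to grow dendritic cells from mouse bone marrow, and IL-5 acts mainly on eosinophils and, in the mouse, on some B cells.

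Signals are scaled array intensities in arbitrary units, with each array brought to a common median of 103.4. Above the limit means a signal over the array's own median on all 5 arrays. The limit is a rank, with no detection call behind it, and signals of different probe sets cannot be compared as levels. In these bulk samples, fewer cells of a type and less RNA per cell cannot be told apart.

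Of the 9 member probe sets, 7 were above the limit, and 36.7% of all probe sets were. They covered 5 of the 6 genes, namely Csf2ra, Csf2rb, Csf2rb2, Il3ra and Csf3r, where 44.7% of the 8251 named genes had at least 1 such probe set. Il5ra was below the array median in every sample. The shared beta chain probe set was above it on 4 arrays. Without sample 1, which was deposited on another scale, 7 member probe sets were above the limit. Leaving out an array can only keep or raise this count, and a scale factor does not change the ranks within an array. None of the 10 was above the 75th percentile on every array, where 17.4% of all probe sets lay: Csf2ra and 1 Csf2rb2 probe set were there on 4 arrays, and Il3ra on 0.

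The sort genes and the named cell type were checked first. Flt3 was above the limit with both probe sets and Itgam with its 1. Of the 6 dendritic cell markers measured, 1 had a probe set above the limit, the invariant chain gene Cd74. Itgax, which encodes CD11c, was above the median on 3 arrays, and the MHC class II chain genes H2-Aa and H2-Ab1 on 1 and 0. Markers of neutrophils were above the limit for 11 of 13 genes, with 13 of 16 probe sets. The exceptions were Cxcr2, above the median on 4 arrays, and Mmp9, on 3 arrays with 1 probe set and 0 with the other. Markers of monocytes and macrophages were above the limit for 5 of 5 genes, with 5 of 9 probe sets. Over the whole series the shares were 44.7% of named genes and 36.7% of probe sets.

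**Figure D1:**
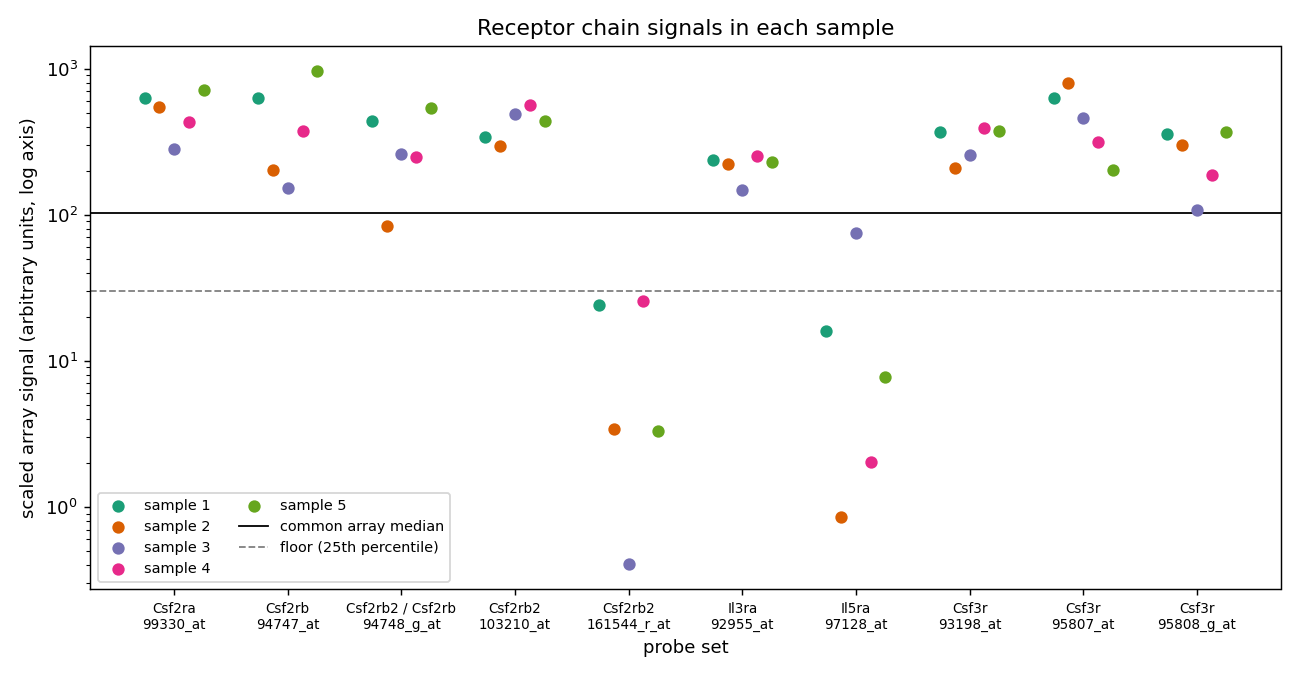
Scaled signal (log axis, arbitrary units) of the 10 receptor chain probe sets, with 1 point per sample, the common array median of 103.4 as a solid line and the floor of 30.0 used before log2 as a dashed line. Both Il5ra and 1 of the 2 Csf2rb2 probe sets lie below the median in every sample, and the shared beta chain probe set lies below it in sample 2.

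Promoter sequences are shown for an alpha chain and the G-CSF receptor gene, which were above the limit, and for Il5ra, which was below it. They are the 250 bases before each annotated start in RefSeq (GRCm38.p6), printed 5′ to 3′ on the gene's strand. Of the 6 genes, 5 had a window in the table used. Capitals mark GAGGAA, the core of sites bound by PU.1, and GCAAT, part of the site of C/EBP factors, each searched on both strands. PU.1 and C/EBP factors are known regulators of myeloid receptor genes. The windows lie at chr19:61228419-61228668 (minus strand) for Csf2ra, chr4:126024409-126024658 (plus strand) for Csf3r and chr6:106749038-106749287 (minus strand) for Il5ra.
Csf2ra: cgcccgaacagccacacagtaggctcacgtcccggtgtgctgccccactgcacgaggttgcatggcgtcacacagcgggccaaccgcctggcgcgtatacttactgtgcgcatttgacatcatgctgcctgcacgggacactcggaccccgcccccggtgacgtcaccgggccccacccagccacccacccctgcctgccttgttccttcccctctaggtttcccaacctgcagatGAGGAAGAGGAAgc
Csf3r: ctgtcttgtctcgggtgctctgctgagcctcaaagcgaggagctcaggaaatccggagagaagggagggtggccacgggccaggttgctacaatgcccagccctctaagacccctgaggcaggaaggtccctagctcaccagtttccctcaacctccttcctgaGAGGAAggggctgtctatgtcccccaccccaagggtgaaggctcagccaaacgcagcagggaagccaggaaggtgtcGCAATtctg
Il5ra: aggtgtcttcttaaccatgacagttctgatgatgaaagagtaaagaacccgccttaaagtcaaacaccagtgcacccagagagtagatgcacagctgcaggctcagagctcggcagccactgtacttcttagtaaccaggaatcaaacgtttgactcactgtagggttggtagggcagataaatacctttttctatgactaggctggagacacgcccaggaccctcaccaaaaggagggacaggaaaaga

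The Csf2ra window held GAGGAA 2 times side by side, at 14 to 9 and 8 to 3 bases before the start. The Csf3r window held GAGGAA at 86 to 81 bases and GCAAT at 9 to 5 bases before the start, and the Il5ra window held neither. Among the windows not printed, that of Il3ra had 1 GCAAT, and that of Csf2rb2 had 1 of each motif, both on the opposite strand. Of 32851 windows in the table, 23.3% held GAGGAA and 23.1% held GCAAT on either strand. A match describes these letters only, and binding was not measured.

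Csf2ra, the GM-CSF alpha chain, had signals of 629, 546, 280.0, 434 and 718 in samples 1 to 5. Sample 5 was highest and sample 3 lowest, 2.57-fold apart, and the mean was 521 ± 171 (SD, n = 5). In rank, the probe set stood between the 73.0th percentile of its array in sample 3 and the 89.4th in sample 5. Its SD of log2 signal was 0.53, against a median of 0.47 over the 5814 probe sets whose mean was above the common median, and 0.31 without sample 3.

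Csf2rb, the common beta chain, differed most between samples among the members above the limit. Its signals were 626, 202, 152, 373 and 968 in samples 1 to 5, with a mean of 464 ± 337 (SD, n = 5). Samples 5 and 1 were high and samples 3 and 2 low, with the highest 6.36-fold above the lowest. The SD of log2 signal was 1.11, larger than in 94.96% of the 5814 probe sets. In rank it stood at the 92.7th percentile in sample 5 and the 59.8th in sample 3.

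The shared beta chain probe set, which cannot be assigned to either gene, had signals of 435, 83.5, 259.5, 247 and 534 in samples 1 to 5. It was highest in sample 5 and next in sample 1, as Csf2rb was. Its lowest value was in sample 2, the 1 array where it was below the median, and its SD of log2 signal was 1.04. Without sample 2 that SD was 0.55. The Csf2rb and the shared probe set carry the same source accession, yet between samples 2 and 3 they went opposite ways. In sample 2 Csf2rb lay 0.87 log2 units below its own mean and the shared probe set 1.65 below; in sample 3 these distances were 1.28 and 0.02.

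Csf2rb2, the IL-3 beta chain, is the nearest protein-coding neighbour of Csf2rb on chromosome 15 in RefSeq, with 0 protein-coding genes between them. Its 2 probe sets were on opposite sides of the limit. The first had 339, 296, 487, 564 and 436 in samples 1 to 5, with a mean of 424 ± 109 (SD, n = 5) and a 1.91-fold range. Samples 4 and 3 were high and sample 2 low, unlike Csf2rb, for which sample 3 was lowest. Set as deviations from each probe set's own mean, Csf2rb minus Csf2rb2 ran from -1.52 log2 units in sample 3 to 1.31 in sample 5. The second probe set had 24.0, 3.41, 0.403, 25.7 and 3.31, all under the floor of 30.0, the 25th percentile of all scaled signals, so its values have no order. Signal from probes that match both beta chain genes cannot be separated, and probe sequences were not used here.

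Il3ra, the IL-3 alpha chain, varied least among the members above the limit. Its signals were 236, 222, 147, 254 and 231 in samples 1 to 5, with a mean of 218 ± 41.5 (SD, n = 5). Sample 3 was apart below the others, which lay between 222 and 254. By Dixon's test at 95%, Il3ra was the 1 of the 8 receptor chain probe sets with a mean above the common median to have an outlying sample, and 6.04% of the 5814 such probe sets did. For Il3ra, the highest was 1.73-fold above the lowest. Its SD of log2 signal, 0.31, was larger than in 20.9% of the 5814 probe sets, and it was 0.08 without sample 3.

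Il5ra, the IL-5 alpha chain, had signals of 16.0, 0.853, 75.4, 2.02 and 7.76 in samples 1 to 5. Every value lay below the array median, and sample 3 was the 1 sample above the floor of 30.0. Eosinophil markers were measured for 3 genes of the 6 listed, and 1 of 4 probe sets was above the limit, against 36.7% of all probe sets. It was for the granule protein gene Prg2, which was below the median on every array with its other probe set. Epx, the eosinophil peroxidase gene, had 22.6, 25.9, 3.77, 84.9 and 173 in samples 1 to 5, and the eotaxin receptor gene Ccr3 had 22.9, 55.6, 60.8, 10.4 and 198. Both were highest in sample 5, where Il5ra was below the floor. Of the mast cell and basophil markers, 3 of 10 probe sets were above the limit, covering 2 of 6 genes, Cpa3 and Mcpt8. The other Mcpt8 probe set was above the median on 1 array. The IgE receptor genes Fcer1a and Ms4a2 were below the median on every array.

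Csf3r, the G-CSF receptor, was above the limit with all 3 of its probe sets, which did not move alike. The first Csf3r probe set had 369, 209, 258, 394 and 374 in samples 1 to 5, with a mean of 321 ± 82.0 (SD, n = 5). Samples 4, 5 and 1 were high, and sample 2 was lowest. The second Csf3r probe set had 631, 794, 462, 313 and 203, with a mean of 480.3 ± 238 (SD, n = 5). Here sample 2, the lowest of the first, was highest, and sample 5 was lowest. The third Csf3r probe set had 358, 300.4, 108, 186 and 370.1, with a mean of 264 ± 114 (SD, n = 5). It was high in samples 5 and 1 and low in sample 3, and its SD of log2 signal was 0.76, or 0.46 without sample 3.

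The last 2 Csf3r probe sets carry 1 source accession. Their deviations from their own means differed by 1.26 log2 units in sample 3 and by -1.71 in sample 5 (the second minus the third), a range of 2.97. No single order of samples can therefore be given for Csf3r. The neutrophil markers, which had a summed signal of 83036, 181164, 135950, 276700 and 179089 in samples 1 to 5, gave their highest sum in sample 4 and their lowest in sample 1. S100a8, S100a9 and Ngp made up most of that sum in samples 2 to 5 but not in sample 1, where Elane (10647), Prtn3 (6429) and Ctsg (8592) had their highest signals. The median deviation of the 14 neutrophil probe sets with a mean above the common median was -0.12, -0.41, -0.41, 0.68 and 0.28 log2 units in samples 1 to 5. Sample 4 was the highest for the first Csf3r probe set, at 394 against 374 in sample 5 and 369 in sample 1, and the second lowest for the other 2. After quantile normalization the first had 364 in sample 4, 400.4 in sample 5 and 374 in sample 1, and with trimmed mean scaling 349, 405 and 386, so sample 4 was then the third highest. The part of neutrophil content in the Csf3r signals was not tested.

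**Figure D2:**
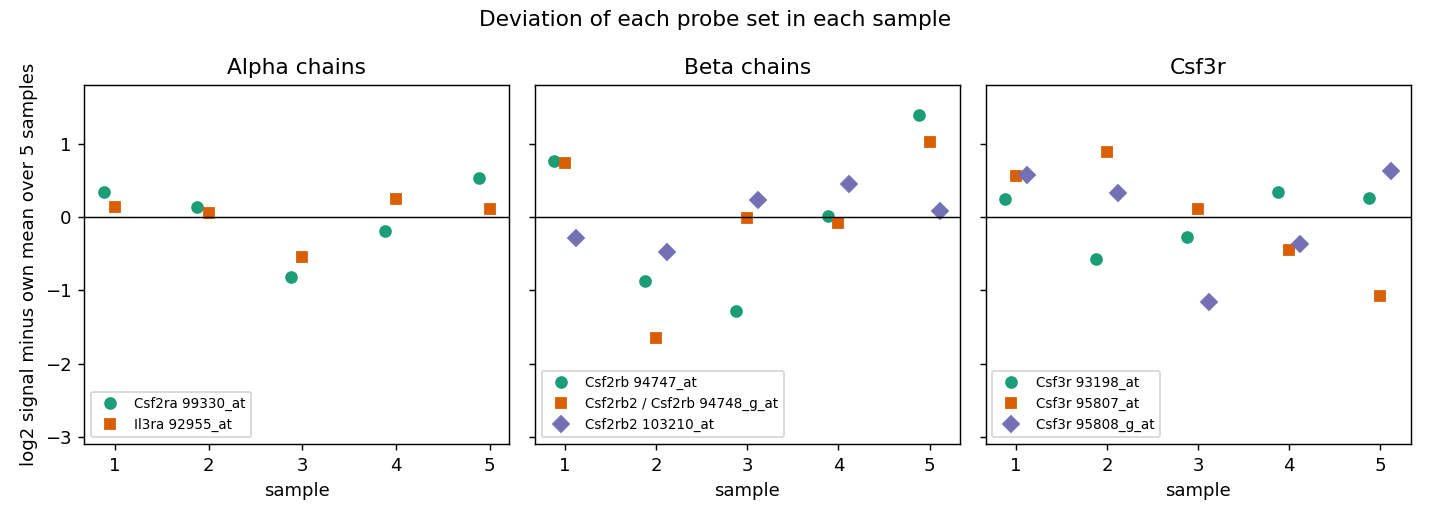
Log2 signal of each probe set minus its own mean over the 5 samples, for the 8 receptor chain probe sets whose mean was above the common median, with alpha chains, beta chains and Csf3r in separate panels and 1 symbol per probe set. Csf2rb and the shared probe set lie highest in sample 5, and the second and the third Csf3r probe set (in the order of the legend) lie 1.71 log2 units apart there.

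Across samples, 8 of the 10 probe sets had a mean above the common median and entered the comparison of spread. Sample 5 was the highest for 4 of these 8, sample 4 for 3 and sample 2 for 1. Sample 3 was the lowest for 4, sample 2 for 3 and sample 5 for 1. The median deviation of the 8 from their own means was 0.45 log2 units in sample 1, -0.21 in sample 2, -0.41 in sample 3, -0.04 in sample 4 and 0.40 in sample 5. Over all 5814 probe sets it was -0.05, 0.07, -0.00304, 0.19 and -0.08 in the same samples. Within the 8, single values in sample 5 ran from -1.08 for the second Csf3r probe set to 1.39 for Csf2rb, so the family did not move as 1 block. Each sample is a single array, and a difference between any 2 samples has no replicate check.

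RNA quality differed between the same samples. The signal ratio of the 3′ over the 5′ control probe set for the transferrin receptor was 3.14, 3.77, 16.7, 8.63 and 5.16 in samples 1 to 5, and that for Gapdh 0.896, 1.06, 4.52, 3.42 and 2.01. For actin it was 1.08, 3.003, 4.15, 5.198 and 2.55. Sample 3 had the highest ratio for the first 2 controls and sample 4 for actin. Sample 3 was the lowest sample for Csf2ra, Csf2rb, Il3ra and the third Csf3r probe set. Csf2rb2 and the second Csf3r probe set were above their own means in sample 3. Sample 1 was deposited on another scale, with a trimmed mean of 1001 against 200.1 in each other sample. Common scaling removes a constant factor only. After it, 19.7% of the signals in sample 1 were under the floor, against 26.1% to 26.6% in the other samples. The part of RNA quality in the receptor signals was not tested.

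The spread of the receptor chains did not pass the test. Limma set each variance against a scaled F distribution fitted across all 5814 probe sets, with Benjamini-Hochberg adjustment over all of them. It called 0 of the 8 receptor chain probe sets, and the background share was 0% (0 of 5814). At an unadjusted p under 0.05 limma listed 2 of these probe sets, where 4.99% of all lay. They were Csf2rb and the shared probe set, each with a limma adjusted p of 0.925. These 2 have the same annotated source, so they are not separate results. Without the shared probe set it was 1 of 7 member probe sets. The median SD of the 8 was 0.65 on the log2 scale, against 0.47 over all, and 5 of the 8 were above that median. Since the F distribution comes from the variances under test, a common difference of the samples in most probe sets would not be seen. On simulated data the test recovered none of the probe sets given the smaller increase in spread tried. The absence of calls therefore does not show equal spread.

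**Figure D3:**
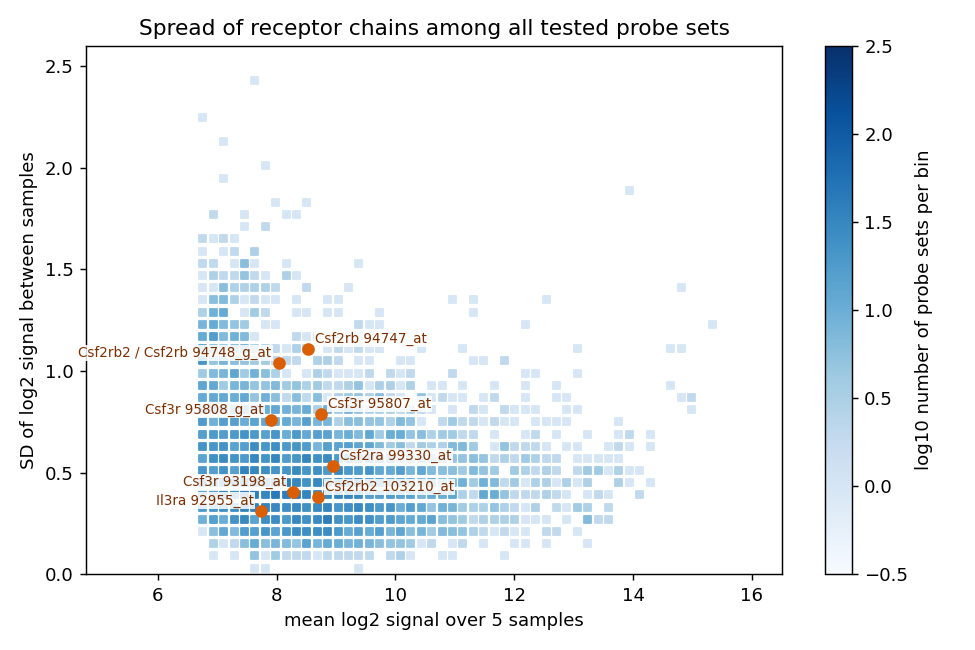
SD of log2 signal between the 5 samples against mean log2 signal, with shading for the number of probe sets per bin among 5814 and labelled points for the 8 receptor chain probe sets. Csf2rb and the shared probe set have SDs of 1.11 and 1.04, and Il3ra has the lowest at 0.31.

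Likeness to other genes was measured as the root mean square difference of the 5 log2 signals after subtracting each mean, over up to 4129 named probe sets above the limit. The genes nearest to Csf2rb were Capn1 (0.18), Lrg1 (0.18) and Csnk1g2 (0.27), against a median of 1.08. Capn1 had 751, 279, 171, 365 and 965 in samples 1 to 5, high in samples 5 and 1 as Csf2rb was. Those nearest to Csf2ra were Tmem160 (0.09), Mlf2 (0.09) and Banp (0.09), against a median of 0.63. Those nearest to Il3ra were Hdac5 (0.03), Aldh2 (0.03) and Clk3 (0.05), against a median of 0.45. For Csf2rb2 they were Dnajb9 (0.06), Mdm4 (0.07) and Ran (0.08), against 0.48.

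The Csf3r probe sets had separate neighbours. They were Bhlhe40 (0.07), Cox7a2 (0.10) and Atp6v0d1 (0.10) for the first, against a median of 0.51. For the second they were Lypla1 (0.16), Ocel1 (0.24) and Gpx1 (0.25), against 0.80, and for the third Git1 (0.15), Dlst (0.17) and Gfus (0.19), against 0.80. With 5 samples and this many candidates, some close profiles are found for any probe set, and these are given as a description. Within the family the closest pair was Csf2ra and the third Csf3r probe set at 0.22, and the farthest was Csf2rb and the second Csf3r probe set at 1.51.

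Of the 4 ligand genes, 0 were above the limit, and 3 were below the median on every array. Csf2, which encodes GM-CSF, had 23.4, 5.26, 14.0, 8.40 and 13.4 in samples 1 to 5, all under the floor. Il3 and Il5 were the others below the median throughout. Csf3, which encodes G-CSF, was above it on 4 arrays, with 243, 239, 165, 171 and 23.2, and sample 5 was apart below the rest.

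The signalling genes were described by role, with the 36.7% of all probe sets as background. Of the kinase list, 6 of 10 probe sets were above the limit, covering 6 of 7 genes measured. Jak2, the kinase bound by the common beta chain, had 353, 512, 384, 850.3 and 384 in samples 1 to 5 with 1 probe set and was below the median on every array with the other. Jak1 had a mean of 685 ± 124 and Syk, with 1 of its 2 probe sets, 1598 ± 310.4 (SD, n = 5 each). Tyk2 was the exception, above the median on 3 arrays.

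Of the STAT list, 4 of 5 probe sets were above the limit. Stat5a, a main STAT factor of these receptors, had 595, 633, 357, 495 and 372 with 1 probe set and 330.5, 399, 341, 339 and 268 with the other. Its close relative Stat5b was below the median on every array, at 45.6, 18.5, 99.6, 81.2 and 44.0. Stat3, the main STAT factor of the G-CSF receptor, was above the limit with both probe sets, with means of 552 ± 163 and 397 ± 57.4 (SD, n = 5 each). 

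Adaptors had 4 of 10 probe sets above the limit, near the background share. They were Grb2, Pik3cd, Shc1 and Ywhaz. Grb2, which links receptors to Ras activation, had 458, 331, 387, 581 and 1139 in samples 1 to 5, highest in sample 5. Ptpn11, the phosphatase SHP2, and Gab2, a docking protein, were below the median on every array.

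Inhibitors had 5 of 10 probe sets above the limit, covering Cish, Ptpn6, Inpp5d, Socs2 and Socs3. Cish, a STAT5-induced inhibitor, had 336, 219.5, 426, 330.3 and 439 in samples 1 to 5. Socs2, of the same family, had 686, 174, 531, 211 and 688, high in samples 5 and 1 and low in sample 2, as the shared beta chain probe set was. Limma called 0 probe sets of the pathway lists after adjustment, with 2 at an unadjusted p under 0.05, where 4.99% of all 5814 lay. They were Socs2, 1 of 8 inhibitor probe sets tested, and Flt3, 1 of 12 tested among other cytokine receptors. Every other pathway list had 0. Socs3, the feedback inhibitor of the G-CSF receptor, had 131, 478, 248, 415 and 252 with 1 probe set and was above the median on 1 array with the other.

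Genes known to be induced by these cytokines had 7 of 9 probe sets above the limit, covering all 7 genes measured. Pim1, a survival kinase, had a mean of 1593 ± 316, Mcl1, an anti-apoptotic gene of myeloid cells, 1355 ± 325, and Myc 557 ± 123 (SD, n = 5 each). Pim1 with this probe set had 1314, 2031, 1825, 1411 and 1385 in samples 1 to 5, highest in sample 2, where Csf2rb was second lowest. The other Pim1 probe set had 113, 138, 49.2, 26.3 and 218, highest in sample 5, as Csf2rb was. It was above the median on 3 arrays. These genes also respond to many other signals.

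Among other cytokine receptors, 11 of 19 probe sets were above the limit, covering 9 of 14 genes measured. Csf1r, the M-CSF receptor, had 397, 491, 376, 1000.2 and 225 in samples 1 to 5 with its brighter probe set, highest in sample 4 and lowest in sample 5. The other had 169.8, 181, 76.7, 134 and 117, highest in sample 2 and lowest in sample 3. Flt3 had 571, 1212, 353, 1268 and 318, lowest in sample 5, with 1 probe set, and 255, 377, 265, 376.5 and 345 with the other, lowest in sample 1. Il4ra, the IL-4 receptor alpha chain, had 507, 555, 452, 550 and 507 with 1 probe set, and 27.4, 44.5, 7.53, 5.29 and 81.7, all below the median, with the other. Epor, the erythropoietin receptor, was below the median on every array.

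Regulators of myeloid receptor genes had 5 of 10 probe sets above the limit. They covered 5 of 8 genes measured, namely Spi1, Cebpa, Cebpb, Runx1 and Gfi1, where 44.7% of all named genes were. Irf8 was above the median on 4 arrays, as was 1 Gata2 probe set. Spi1, which encodes PU.1, had 1056, 587, 517, 919 and 1473 in samples 1 to 5. Its samples fell in the same order as those of Csf2rb, from sample 5 down to sample 3, as did 1.38% of the 5813 other probe sets compared. All 8 receptor chain probe sets with a mean above the common median were compared in this way. Other pathway genes matched too, Socs2 the shared beta chain probe set, Il6ra Csf2rb2 and Inpp5d the first Csf3r probe set. With this many comparisons some matches are found, and this one is given as a description. Cebpa had a mean of 1684 ± 486 (SD, n = 5) and was lowest in sample 5, at 1029. Gata1, a factor of red cells, eosinophils and mast cells, was above the median on 1 array with each of its 2 probe sets.

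**Figure D4:**
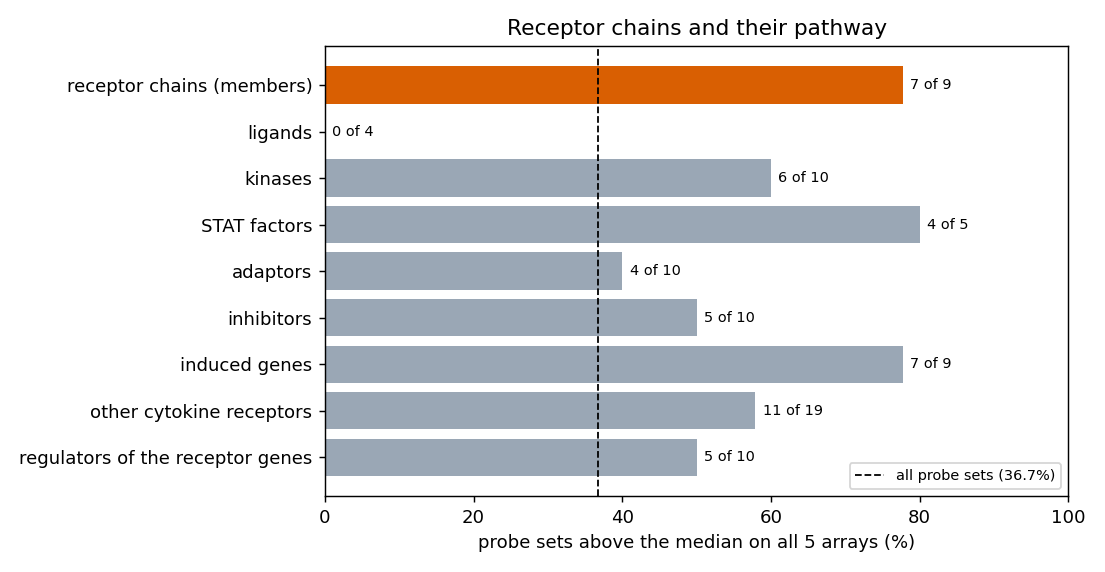
Percent of probe sets above the median on all 5 arrays for the receptor chains and each pathway list, with the number of probe sets beside each bar and the share of all probe sets, 36.7%, as a dashed line. Receptor chains stand at 7 of 9, ligands at 0 of 4 and adaptors at 4 of 10.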

How the data were processed

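The authors deposited 1 intensity value per probe set and array on a linear scale for 12488 probe sets. Their software and scaling are not given in the sources used here. Arrays were scaled to a common median of 103.4 without the 66 control probe sets. Before log2, signals below a floor of 30.0 (the 25th percentile over all arrays) were set to the floor. Genes were named from the platform annotation: 10833 probe sets had 1 symbol, 396 several and 1193 were not listed. All 6 members kept their symbol in RefSeq.

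Probe sets whose mean log2 signal was above the common median (5814) entered limma (version 3.58.1, R 4.3.3) for variance, with a trend on mean signal, a robust fit and a threshold of 0.05 after Benjamini-Hochberg adjustment. The procedure was tested on simulated data, where it recovered most of the probe sets given the largest increase in spread tried, with a few false calls, and none given the smaller increase. The absence of calls here therefore does not show equal spread. Python 3.11.15 did the rest. Arrays give no counts, and their number, 5, limits the precision; p-values measure the spread between these samples, which may be technical.

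All member probe sets and pathway list genes could be named, as could, for each member above the limit, the 3 genes with the nearest profile. The members, lists and motifs were chosen with earlier results of these data known. Alternatives tried were unscaled values, quantile normalization, a common mean after trimming 2% at each end, a floor at the 10th percentile, a pseudocount of 50, other limits, and leaving out each sample.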

Additional observations from a re-analysis of the deposited data

Results flagged for a closer look

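Dixon's ratio, the gap of the outermost sample to the nearest other divided by the range of log2 signal, was above the 95% critical value of 0.71 for 2 of the receptor chain probe sets. Il3ra had a ratio of 0.757, with sample 3 low, and Il5ra had 1.0, a value fixed by the floor, since sample 3 alone was above it. Sample 3 also had the highest transferrin receptor 3′ over 5′ ratio, 16.7; its part was not tested.

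In the pathway lists, 9 more probe sets were above it. Csf3 had a ratio of 0.816 with sample 5 low, Epor 0.947 with sample 5 high, and Il10ra, the IL-10 receptor, 0.797 with sample 2 high. Gata1 had 0.738 with sample 5 high on 1 probe set and 0.729 with sample 5 low on the other, so the 2 disagreed. Dim probe sets with most or several samples at the floor were Btk and Jak2 with 1.0 each, from samples 3 and 1, Bcl2l1 with 0.914, from sample 3, and Ptpn11, where samples 4 and 5 were above the floor, with 0.826. Of 84 probe sets with a ratio, 11 were above the value. Among the 59 with a mean above the common median there were 2, Il3ra and Csf3, where 6.04% of all 5814 such probe sets were, and chance alone gives about 5%. All of them but Il3ra have at least 1 sample at the floor, which can set the ratio.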

How the results depend on the processing

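The count of receptor chain probe sets above the limit was 7 of 10. The scalings, the lower floor and the pseudocount could not change it, since the limit is a rank within each array. With single samples left out, which can only keep or raise the count, it was 7 to 8. The limit at the 40th percentile or with 3 arrays sufficing is looser. The shared beta chain probe set was then added, and the count was 8. It was 0 with the limit at the 75th percentile, a stricter limit by construction. Limma called 0 receptor chain probe sets at the adjusted threshold under every alternative, with 0 to 3 at an unadjusted p under 0.05; there were 0 without sample 5, with the values as deposited and with no filter on signal, against 2. The lowest limma adjusted p among them ran from 0.653 to 0.946. Outlying samples among receptor chains, alternatives chosen after seeing the data, numbered 2, in Il3ra and Il5ra. There was 1 with scaling to a common trimmed mean, where Il3ra was no longer above the critical value. Leaving out single samples, which raises the critical value, gave 1 to 3. Il3ra was then above it only without sample 4, and without sample 3 its low value was itself left out. The first Csf3r probe set was above it without sample 2 or 3, and the third without sample 4. As deposited, the dim Csf2rb2 probe set took the place of Il5ra. In the values as deposited the SD of log2 signal of Csf2rb was 1.84 against 1.11, since sample 1 kept its larger scale. Without sample 3 the SD of Il3ra fell to 0.08, against 0.31, that of Csf2ra to 0.31, against 0.53, and that of the third Csf3r probe set to 0.46, against 0.76; without sample 2 that of the shared probe set fell to 0.55, against 1.04, and 1 receptor chain probe set was at an unadjusted p under 0.05 by limma. Sample 5 was highest for 6 of 8 probe sets after trimmed mean scaling, against 4, and the median deviation kept its sign in each sample under the rescalings. Mean log2 signals of 8 of the 10 probe sets moved by less than their SD under each alternative. Unscaled values, trimmed mean scaling and the lower floor could not move these means. The array factors cancel in a mean of logs, and no value of these probe sets lay under the floor. The exceptions, Il5ra and the dim Csf2rb2 probe set, depend on the floor. No paired analysis was possible because all samples form 1 group.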
